A study of Mus musculus with 8 samples.

Results

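The family of the EGF receptor and its ligands was followed through RNA-seq tables of JunB cKO and wild type mouse skin. The 10 genes were chosen by name, namely the receptor genes Egfr, Erbb2 and Erbb3 and the ligand genes Egf, Tgfa, Hbegf, Areg, Ereg, Epgn and Btc. All 10 were found, each with 1 locus, among 26457 gene loci of the unperturbed table, 47990 of the hair plucking table and 46726 of the wound table. In JunB cKO mice, Cre recombinase under the K14 promoter, which is active in basal epidermal cells, removes floxed JunB alleles, so that cells outside the epidermis and its appendages keep the gene. The labels write these mice as JunB -/- and the controls as JunB +/+, both on the C57BL/6 strain; Cre in the control mice is not given in the sources used here. The unperturbed pair came from untreated mice (60 days old) and is labelled as keratinocytes released with trypsin, whereas the study speaks of uninjured skin and, for some genes, of epidermal progenitor cells. The hair plucking pair was collected 4 days after mechanical depilation of the back, on postnatal day 58, and the wound pair 30 days after wounding, with no age stated. RNA of 3 samples was combined within each group, and 1 library per genotype was made for the unperturbed and the hair plucking pair and 2 per genotype for wounds.

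Every table holds 1 value per genotype, in FPKM, which is read number normalised to transcript length and library size. No spread between animals or libraries can therefore be given, and no difference below was tested. Differences are given on the scale log2((cKO + 1)/(WT + 1)) in FPKM, where WT stands for wild type and cKO for JunB cKO, and a gene was counted as higher or lower in JunB cKO from 2-fold on this scale, which is a log2 ratio of 1 or -1. The added 1 FPKM makes the difference of weakly expressed genes look smaller, and fold values in the text are plain ratios without it. Read numbers were estimated from the size of the steps between low FPKM values. Per kilobase of transcript length, after 200 bases were taken off each transcript, 1 FPKM was worth 16.9 reads in WT and 4.98 in cKO of the unperturbed pair, 16.3 and 12.9 after hair plucking, and 43.3 and 40.3 in wounds over both libraries. The 95% intervals given with ratios are exact binomial intervals on these estimated reads and cover counting error only. Junb itself was at 268 FPKM in WT and 31.4 in cKO in the unperturbed pair, at 40.8 and 11.7 after hair plucking, and at 33.4 and 15.4 in wounds.

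The genes lie on 6 chromosomes of GRCm38. Egfr (chromosome 11, 16752203 to 16918158, plus strand) and Erbb2 (chromosome 11, 98412470 to 98437716, plus strand) share a chromosome, and Erbb3 is on chromosome 10 from 128567523 to 128589652, minus strand. Among the ligands, Egf is on chromosome 3 from 129677565 to 129755316, minus strand, Tgfa on chromosome 6 from 86195223 to 86275719, plus strand, and Hbegf on chromosome 18 from 36504927 to 36515805, minus strand. The other 4 are neighbours on chromosome 5. They follow each other as Epgn (91027464 to 91035215), Ereg (91074622 to 91093646) and Areg (91139599 to 91148432) on the plus strand and Btc (91357261 to 91402994) on the minus strand, over 375.5 kb in all.

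EGF receptor, ErbB2 and ErbB3 are receptor tyrosine kinases that act as pairs. The EGF receptor binds ligands and has kinase activity, ErbB2 binds no known ligand and is the preferred partner of the others, and ErbB3 binds neuregulins but has little kinase activity of its own. The ligands are made as membrane proteins and released by ADAM proteases. Egf, Tgfa, Areg and Epgn bind the EGF receptor, whereas Hbegf, Ereg and Btc bind the EGF receptor and ErbB4. In skin, this system is known for driving keratinocyte proliferation and migration, and for shaping hair follicles and sebaceous glands. JunB belongs to the AP-1 transcription factors, which bind the letters TGACTCA in DNA.

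RefSeq promoter windows of GRCm38.p6, from 250 bases before to 50 bases after the start of the gene, were kept for 7 of the 10 genes, with 2 windows for Egf. No window was kept for Erbb3, Ereg and Hbegf, which were not searched. The lack of a window here does not show that RefSeq has no entry for the gene. The windows of Areg, Epgn and Erbb2 are shown because these genes had a 2-fold higher FPKM in JunB cKO after hair plucking. They were searched for the AP-1 letters TGACTCA, which read on the other strand as TGAGTCA, for the CRE letters TGACGTCA, which read the same on both strands, and for TATAA, which reads on the other strand as TTATA. Matches are in capitals.
Areg, chr5:91139349-91139648, plus strand: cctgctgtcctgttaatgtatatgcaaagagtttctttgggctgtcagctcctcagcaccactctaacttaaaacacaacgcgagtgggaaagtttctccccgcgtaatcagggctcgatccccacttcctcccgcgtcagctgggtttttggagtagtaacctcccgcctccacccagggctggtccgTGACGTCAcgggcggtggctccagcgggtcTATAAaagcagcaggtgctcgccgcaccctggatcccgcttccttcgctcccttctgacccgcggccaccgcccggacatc
Epgn, chr5:91027267-91027566, plus strand: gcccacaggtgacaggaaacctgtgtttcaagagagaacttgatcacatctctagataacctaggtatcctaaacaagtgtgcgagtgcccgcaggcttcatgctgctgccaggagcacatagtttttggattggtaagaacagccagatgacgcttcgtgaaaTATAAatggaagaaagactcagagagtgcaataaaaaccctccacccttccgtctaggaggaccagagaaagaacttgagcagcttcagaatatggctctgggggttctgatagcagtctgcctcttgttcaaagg
Erbb2, chr11:98412234-98412533, plus strand: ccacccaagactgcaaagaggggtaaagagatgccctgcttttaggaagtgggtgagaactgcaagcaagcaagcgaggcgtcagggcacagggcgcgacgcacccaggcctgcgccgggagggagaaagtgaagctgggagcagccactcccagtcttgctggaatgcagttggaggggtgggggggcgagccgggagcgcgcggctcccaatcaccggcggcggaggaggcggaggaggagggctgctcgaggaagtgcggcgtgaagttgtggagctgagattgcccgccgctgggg
The AP-1 letters were found in 0 of the 8 windows kept for the family, and in 5.20% of all 32851 RefSeq promoter windows. The window of Areg holds the CRE letters at -61 to -54, as do 1.79% of all windows, and TATAA at -31 to -27. The window of Epgn holds TATAA at -86 to -82, and 24.9% of all windows hold TATAA or TTATA. No match was found in the window of Erbb2. A match describes letters only, and binding was not measured here.

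In the unperturbed pair, all 3 receptor genes had a lower FPKM in JunB cKO and 5 of the 7 ligand genes a higher one, but none of the 10 genes differed by 2-fold. Of all loci in the same table, 9.31% had at least 2-fold more and 0.858% at least 2-fold less FPKM in JunB cKO, or 15.4% and 1.42% of the loci with 1 FPKM or more in the higher genotype. These sets take in loci at or near 0 in WT. Of the loci with 1 FPKM or more in both genotypes, 2.03% passed 2-fold in either direction. The log2 ratios of the family ran from -0.50 to 0.93 with a median of -0.01, beside a median of 0.13 over all loci and of -0.23 over loci with 10 FPKM or more in the higher genotype.

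After hair plucking, 3 of the 10 genes were at least 2-fold higher in JunB cKO, namely Erbb2, Epgn and Areg, and Egf was at least 2-fold lower. That is 30% and 10% of the family, beside 6.5% and 5.65% of all loci and 18.4% and 16% of the loci with 1 FPKM or more in the higher genotype. The log2 ratios ran from -1.03 to 1.84 with a median of 0.34, beside a median of 0.00 over loci with 1 FPKM or more in both genotypes.

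In wounds, 0 of the 10 genes passed 2-fold, and 9 of them lay within 1.5-fold. Of all loci in wounds, 2.16% had at least 2-fold more and 1.98% at least 2-fold less FPKM in JunB cKO, or 5.68% and 5.19% of the loci with 1 FPKM or more in the higher genotype. The log2 ratios of the family ran from -0.45 to 0.80 with a median of 0.07, beside 0.01 over loci with 1 FPKM or more in both genotypes.

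**Figure D1:**
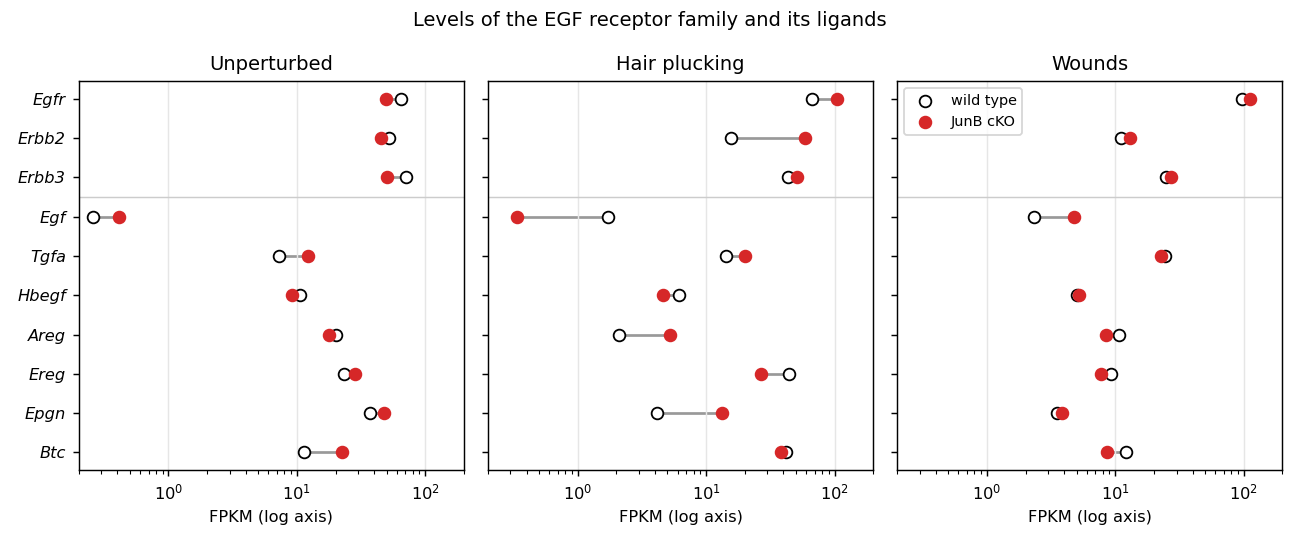
FPKM values (log axis) of the 3 receptor genes (above the line) and the 7 ligand genes in wild type (open circles) and JunB cKO (red circles) in the unperturbed, hair plucking and wound tables, with 1 value per genotype and no error. The receptor genes lie at 10 FPKM or more in every column, whereas Egf is the lowest gene in 5 of the 6 columns, and the widest gaps between the genotypes are those of Egf, Erbb2, Epgn and Areg after hair plucking.

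Egfr encodes the receptor that binds all 7 ligands. Its FPKM in the unperturbed pair was 64.2 in WT and 49.1 in cKO, a log2 ratio of -0.38 (cKO/WT 0.765, counting interval 0.732 to 0.799). The direction was opposite after hair plucking, with 66.5 in WT and 105 in cKO (log2 ratio 0.65, cKO/WT 1.57, counting interval 1.54 to 1.62). Wounds had 96.3 in WT and 113 in cKO (log2 ratio 0.22). Egfr was thus higher in JunB cKO in both injured pairs and lower in the unperturbed one, without reaching 2-fold in any. Loci of the unperturbed table with 10 FPKM or more had a middle range (quartiles) from -0.40 to -0.04, which holds the value of Egfr.

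Erbb2, the receptor without a ligand of its own, had the widest difference of the 3 receptor genes after hair plucking. It was at 15.7 FPKM in plucked WT and at 58.9 in plucked cKO, a log2 ratio of 1.84 (cKO/WT 3.75, counting interval 3.52 to 4.01, from about 1230 and 3647 reads). Only 7.45% of the loci with 1 FPKM or more in the higher genotype had a higher log2 ratio in that table. The other pairs had no such gap. Erbb2 was at 51.9 in WT and 45.2 in cKO in the unperturbed pair (log2 ratio -0.20), and at 11.1 and 13.1 in wounds (log2 ratio 0.21).

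Erbb3, a receptor of neuregulins, was at 71.3 FPKM in unperturbed WT and 50.3 in unperturbed cKO (log2 ratio -0.50, cKO/WT 0.705, counting interval 0.666 to 0.746). This was the lowest log2 ratio of the family in the unperturbed pair, where 10.02% of the loci with 1 FPKM or more in the higher genotype had a lower one. That set takes in loci at or near 0 in WT. Loci with 10 FPKM or more in the higher genotype had a lower quartile of -0.40 and a median of -0.23 there. Hair plucking had 43.2 in WT and 50.7 in cKO (log2 ratio 0.22) and wounds had 24.7 and 27.1 (log2 ratio 0.13), the smallest differences among the receptors in both tables.

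The balance between the receptors differed accordingly. FPKM of Erbb2 divided by FPKM of Egfr was 0.236 in plucked WT and 0.563 in plucked cKO, a 2.38-fold difference, but 0.116 in both genotypes in wounds, and 0.809 and 0.920 in the unperturbed pair. Among the receptors, Erbb2 ranked last in plucked wild type with 12.5% of the summed receptor FPKM and second in plucked JunB cKO with 27.5%. In the other tables, the order of the 3 receptors was shared by both genotypes: Erbb3, Egfr, Erbb2 in the unperturbed pair and Egfr, Erbb3, Erbb2 in wounds. Egfr alone made up 72.9% of the receptor FPKM in wild type wounds and 73.7% in JunB cKO wounds. The summed FPKM of the receptors was 187 in WT and 145 in cKO in the unperturbed pair, 125 and 214 after hair plucking, and 132 and 153 in wounds.

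Erbb4, the remaining receptor of the family, was not among the 10 genes, and its values had been seen when it was named here. It was at 0.0583 FPKM in WT and 1.09 in cKO in the unperturbed pair, at 0.0582 and listed at 0 after hair plucking, and at 1.06 and 0.513 in wounds. All of these are far under the values of the other receptors. Genes of olfactory, vomeronasal and taste receptors, which are mostly silent outside sensory tissue, had a median of 0.543 FPKM in unperturbed JunB cKO and a 95th percentile of 1.65, but a median of 0 in the other 5 columns, so the higher Erbb4 value of unperturbed JunB cKO lay within the range of those genes.

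**Figure D2:**
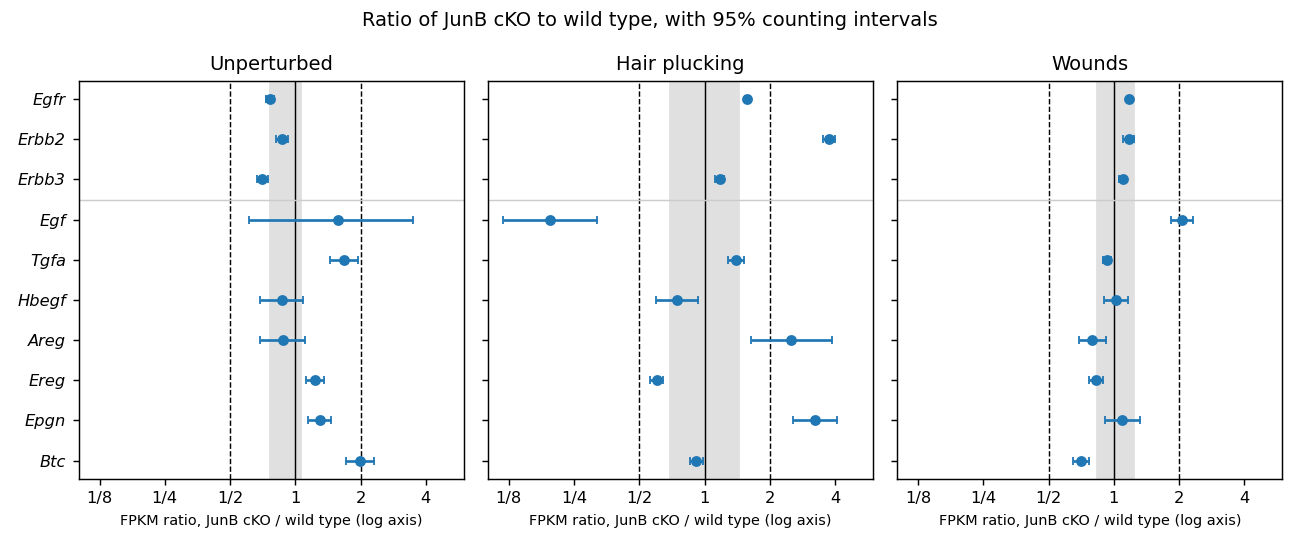
Ratio of JunB cKO to wild type FPKM (log axis) of the 10 genes in each table, with 95% counting intervals from estimated reads, 2-fold limits as broken lines and the quartile range of the loci with 1 FPKM or more in both genotypes as grey bands. Erbb2, Epgn and Areg lie to the right and Egf to the left of the limits after hair plucking, where the grey band (0.695 to 1.45) is wider than in the unperturbed pair (0.765 to 1.07) and in wounds (0.835 to 1.24).

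Egf, the founding ligand of the family, had ratios in opposite directions in the injured pairs, and in the unperturbed pair it had the fewest reads of the family. Without injury it was at 0.260 FPKM in WT and 0.409 in cKO, from about 20 and 9 reads (log2 ratio 0.16), and the counting interval of the ratio, 0.612 to 3.51, holds 1. The JunB cKO value was under the median of 0.543 of the sensory receptor genes of the same column. After hair plucking it was at 1.73 in WT and 0.335 in cKO, a log2 ratio of -1.03 (WT/cKO 5.15, counting interval 3.14 to 8.55, from about 128 and 20 reads). Wounds had the opposite direction, with 2.31 in WT and 4.75 in cKO (log2 ratio 0.80, cKO/WT 2.05, counting interval 1.84 to 2.31, from about 457 and 874 reads). Without the added 1 FPKM, Egf passed 2-fold in wounds as well. In that table, 8.37% of the loci with 1 FPKM or more in the higher genotype had a higher log2 ratio than Egf.

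Tgfa, an autocrine ligand of keratinocytes, was at 7.25 FPKM in WT and 12.2 in cKO in the unperturbed pair (log2 ratio 0.67, cKO/WT 1.68, counting interval 1.44 to 1.95). Hair plucking had 14.3 and 19.9 (log2 ratio 0.46) and wounds 24.5 and 22.7 (log2 ratio -0.10). It was higher in JunB cKO in the unperturbed and the plucked pair by less than 2-fold. In wounds the genotypes were within 1.5-fold, and there Tgfa was the ligand with the highest FPKM in both genotypes, at 36.4% of the ligand FPKM in WT and 37.1% in cKO.

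Hbegf, the heparin-binding ligand, differed by less than 1.5-fold in every pair. It was at 10.6 FPKM in WT and 9.23 in cKO of the unperturbed pair (log2 ratio -0.19), at 6.15 and 4.61 after hair plucking (log2 ratio -0.35), and at 5.08 and 5.20 in wounds (log2 ratio 0.03). The counting intervals of its ratio hold 1 in the unperturbed pair (0.689 to 1.08) and in wounds (0.899 to 1.17). Since Tgfa and Hbegf differed in opposite directions, Tgfa divided by Hbegf was 2.32 in plucked WT and 4.32 in plucked cKO, and 0.682 and 1.32 in the unperturbed pair.

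Areg, the gene of amphiregulin, was at 2.12 FPKM in plucked WT and 5.28 in plucked cKO, a log2 ratio of 1.01 (cKO/WT 2.50, counting interval 1.64 to 3.87). The call rests on about 35 and 69 reads and lies just past the limit. The unperturbed pair had 20.3 in WT and 17.9 in cKO (log2 ratio -0.18), with a counting interval of the ratio, 0.688 to 1.11, that holds 1. Wounds had 10.6 and 8.43 (log2 ratio -0.30).

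Epgn, the gene of epigen, had the highest log2 ratio of the ligands after hair plucking. It was at 4.16 FPKM in plucked WT and 13.4 in plucked cKO, a log2 ratio of 1.48 (cKO/WT 3.22, counting interval 2.56 to 4.06, from about 106 and 269 reads), and 10.6% of the loci with 1 FPKM or more in the higher genotype had a higher log2 ratio. Epgn was also the unperturbed ligand with the highest FPKM in both genotypes, at 36.9 in WT and 47.9 in cKO (log2 ratio 0.37, counting interval of cKO/WT 1.15 to 1.46). In wounds it was at 3.50 and 3.84 (log2 ratio 0.10), with an interval of 0.911 to 1.31.

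Ereg, the gene of epiregulin, went the other way after hair plucking. Its FPKM was 44.2 in plucked wild type, the highest of all ligands in that column, and 26.5 in plucked JunB cKO (log2 ratio -0.72, WT/cKO 1.67, counting interval 1.56 to 1.78). Ereg was at 23.1 and 28.5 in the unperturbed pair (log2 ratio 0.29) and in wounds at 9.29 and 7.71 (log2 ratio -0.24). None of these reached 2-fold. The values of Ereg are uncertain because its locus shares its bounds with an antisense gene, Gm19610, in the unperturbed table (20.0 FPKM in WT and 14.01 in cKO) and with Gm42532 in the others (listed at 0 in both plucked columns and in wild type wounds, 1.08 in JunB cKO wounds). The library kit keeps the strand of the RNA, but whether the counting used it is not given in the sources used here.

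Btc, the gene of betacellulin, came closest to 2-fold in the unperturbed pair, with 11.3 FPKM in WT and 22.5 in cKO (log2 ratio 0.93, cKO/WT 1.99, counting interval 1.72 to 2.30). Loci with 1 FPKM or more in both genotypes had a median of -0.15 there, and relative to it the log2 ratio of Btc was 1.09, past the limit. In that table, 16.8% of the loci with 1 FPKM or more in the higher genotype had a higher log2 ratio. That set takes in loci at or near 0 in WT. Of the loci with 1 FPKM or more in both genotypes, 2.03% passed 2-fold in either direction. After hair plucking it was at 42.1 and 38.6 (log2 ratio -0.12), and in wounds at 12.1 and 8.54 (log2 ratio -0.45, WT/cKO 1.41, counting interval 1.30 to 1.54). The wound value was the lowest log2 ratio of the family in that table, where 15.0% of the loci had a lower one.

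**Figure D3:**
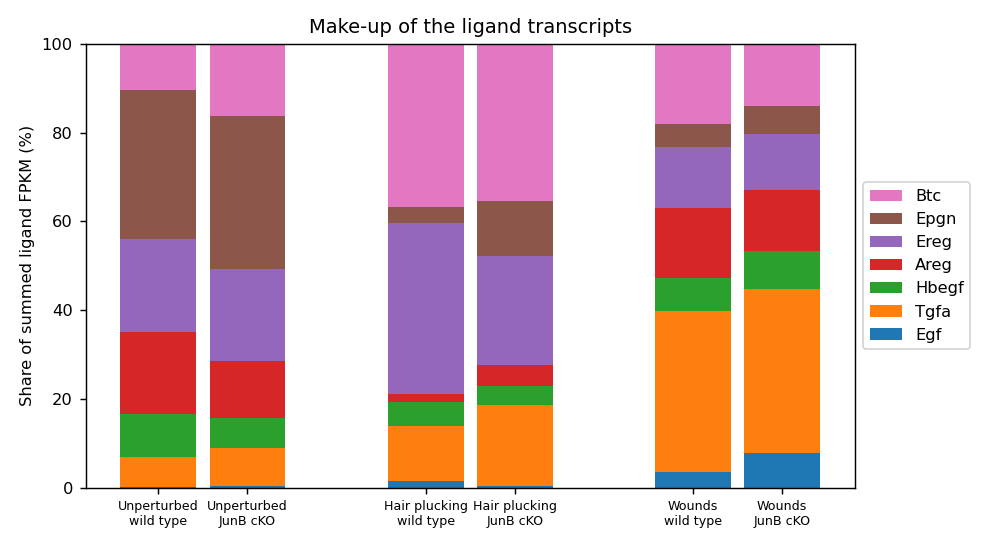
Share of each ligand gene in the summed FPKM of the 7 ligand genes (%, stacked bars), for wild type and JunB cKO in each table. Epgn makes up 33.6% and 34.6% in the unperturbed columns, and after hair plucking 3.62% in WT and 12.3% in cKO.

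The tables were normalised separately, so the ligands were compared by their order and share within a column. In the unperturbed pair, the order by FPKM was Epgn, Ereg, Areg, Btc, Hbegf, Tgfa and Egf in wild type, and Btc passed Areg and Tgfa passed Hbegf in JunB cKO. In plucked wild type, Ereg and Btc led with 38.5% and 36.7% of the summed ligand FPKM. In plucked JunB cKO, Btc had 35.5%, Ereg 24.4%, Tgfa 18.3% and Epgn 12.3%. Epgn divided by Ereg was 0.0940 in plucked WT and 0.505 in plucked cKO, a 5.37-fold difference, and Areg divided by Ereg was 0.0478 and 0.199. In wounds, the order was Tgfa, Btc, Areg, Ereg, Hbegf, Epgn and Egf in wild type, and Egf passed Epgn in JunB cKO. Some neighbours in these orders were close, such as Btc at 8.54 and Areg at 8.43 in JunB cKO wounds, and without replicates none can be told from a tie.

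Summed over the 7 ligand genes, FPKM was 109.9 in WT and 138.5 in cKO in the unperturbed pair (cKO/WT 1.26), 115 and 109 after hair plucking (0.947), and 67.3 and 61.2 in wounds (0.909). The single differences after hair plucking therefore left the sum nearly equal, since Ereg was lower by about as much FPKM as Tgfa, Epgn and Areg together were higher. The receptor sum, by contrast, was 1.71 times as high in plucked JunB cKO.

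**Figure D4:**
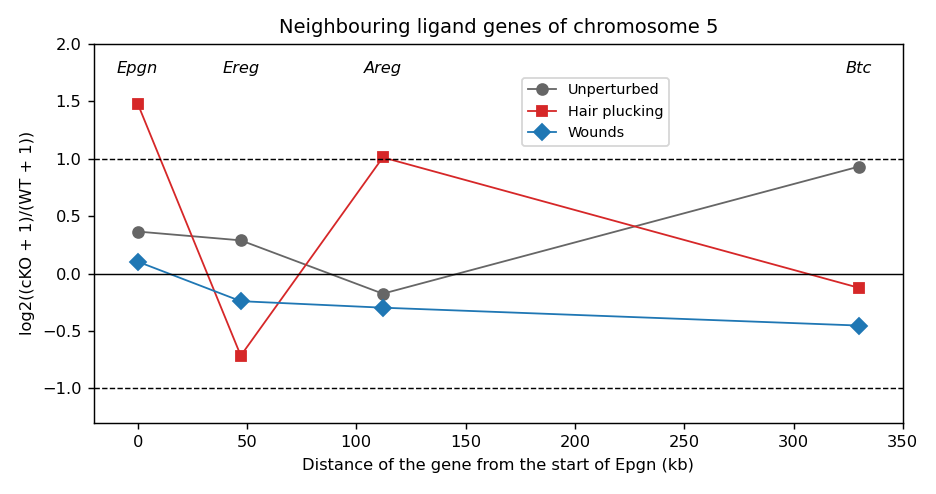
Log2 ratio of JunB cKO over wild type (1 FPKM added) of Epgn, Ereg, Areg and Btc against the distance of the gene from the start of Epgn on chromosome 5 (kb), for the 3 tables, with the 2-fold limits as broken lines. The 4 neighbours did not share a direction after hair plucking, where Epgn (1.48) and Areg (1.01) were higher and Ereg (-0.72) and Btc (-0.12) lower in JunB cKO.

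The 4 neighbouring ligand genes of chromosome 5 had mixed directions in every table. Epgn, Ereg and Btc were higher in unperturbed JunB cKO and Areg lower. In wounds Areg, Ereg and Btc were lower and Epgn higher. After hair plucking, Ereg, which was lower, lies between Epgn and Areg, which were higher, with gaps of 39.4 kb and 45.95 kb between the genes.

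Markers of cell types were summed to see what the samples held. Without injury, 6 basal keratinocyte markers summed to 6072 FPKM in WT and 5745 in cKO, against 13.7 and 12.5 for 6 fibroblast markers, and the keratinocyte label matched the markers. Suprabasal keratinocyte markers summed to 12254.5 and 14856, sebocyte markers to 449 and 246, and the 7 other lists to at most 16.7 FPKM each. The hair plucking pair carries the tissue label keratinocyte too, but its title says skin biopsy, and its fibroblast markers summed to 5109 FPKM in wild type, next to 5024 for basal keratinocytes. In this pair other cell types moved with the genotype. In JunB cKO, 6 of 6 fibroblast markers were lower (sum 1856), 6 of 6 myeloid markers were at least 2-fold lower (233 and 81.6), and 4 of 4 measured skeletal muscle markers were at least 2-fold lower (119 and 13.7, with Myl1 listed at 0 in JunB cKO). Hair shaft keratins were at least 2-fold higher in 4 of 4 (0.314 and 48.4), and Krt31, Krt33a and Krt35 were listed at 0 in wild type. Basal keratinocyte markers summed to 4643 there, and their median log2 ratio was 0.27. Sums of the remaining lists were 13629 and 17391 for suprabasal keratinocytes, 1115 and 728 for sebocytes, 147 and 48.7 for adipocytes, 70.4 and 52.8 for endothelial cells, 43.3 and 26.3 for T cells, and 28.5 and 51.8 for melanocytes. The part of these shifts in the values of Erbb2, Epgn, Areg and Egf was not tested, and in pieces of skin fewer cells of a type and less RNA per cell cannot be told apart. Relative to the median of the basal keratinocyte markers, Erbb2 and Epgn still passed 2-fold after hair plucking, whereas Areg had a log2 ratio of 0.74. The single markers ran from -0.52 (Krt14) to 1.04 (Col17a1), so these outcomes depend on the marker taken.

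In wounds, 5 of 5 sebocyte markers were higher in JunB cKO (438 and 1091) and 4 of 4 hair shaft keratins lower (942 and 594), while basal keratinocyte markers summed to 1923 and 2239, fibroblast markers to 10532 and 13412 and myeloid markers to 412 and 420.5. The remaining sums were 4343 and 5542 for suprabasal keratinocytes, 2154 and 2489 for skeletal muscle, 707 and 824 for adipocytes, 133 and 181 for endothelial cells, 12.3 and 14.8 for T cells, and 226 and 117 for melanocytes. The part of the sebocyte and hair shaft markers in the value of Egf was not tested.

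The other genes of the pathway were described by 7 lists with 71 genes, of which 70 were measured in the unperturbed table, where Hras was missing, and all in the others. Without injury 1 gene was at least 2-fold higher and 0 lower in JunB cKO, after hair plucking 6 and 6, and in wounds 2 and 1. The shares of all loci past the limit were 9.31% and 0.858%, 6.5% and 5.65%, and 2.16% and 1.98% in the same order, and 15.4% and 1.42%, 18.4% and 16%, and 5.68% and 5.19% for loci with 1 FPKM or more in the higher genotype. The counts of the lists are near or under these shares. Their median log2 ratio was -0.22, 0.00 and 0.04 in this order. Of the 70 genes, 57 were lower in unperturbed JunB cKO, as was the median of well expressed loci.

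**Figure D5:**
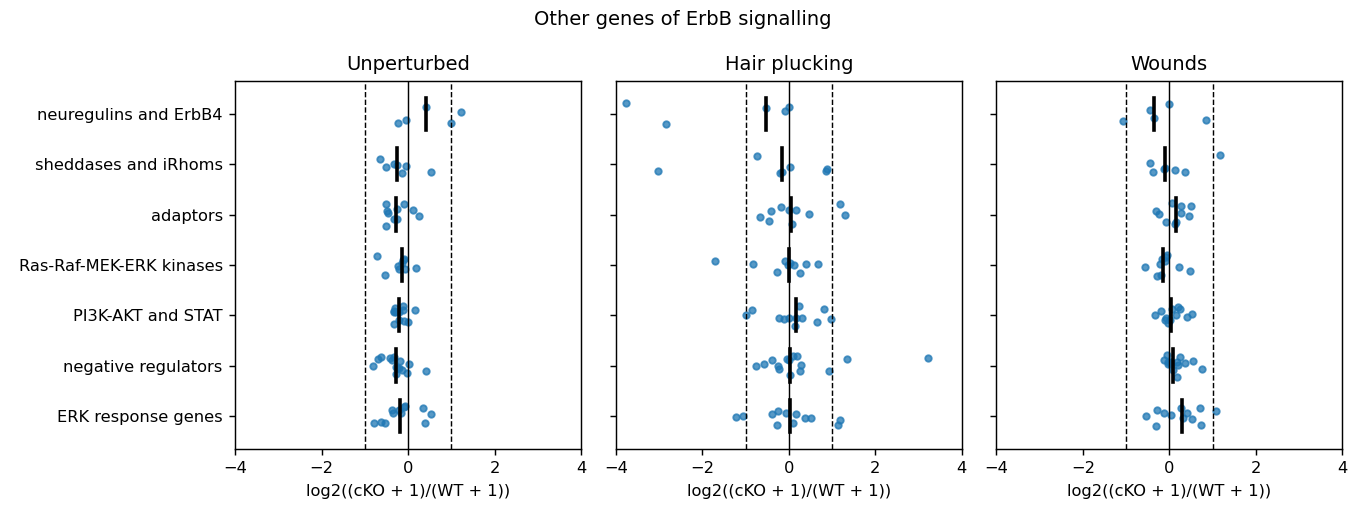
Log2 ratios of JunB cKO over wild type (1 FPKM added) of the genes of the 7 pathway lists (points, spread vertically for visibility) with the median of each list (black bars) and 2-fold limits (broken lines). The points of the hair plucking table reach from Nrg1, which was listed at 0 in JunB cKO, to Socs3 at 3.21, and those of the other tables stay near the limits or within them.

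Of the list of ErbB4 and the neuregulins, the ligands of ErbB3 and ErbB4, none was higher in plucked JunB cKO, and 2 were lower by 2-fold or more. Nrg4 was at 34.3 FPKM in WT and 3.96 in cKO (log2 ratio -2.83), and Nrg1 at 12.7 in WT and listed at 0 in cKO. Erbb3, a receptor of Nrg1, was at 43.2 and 50.7 in the same columns. In wounds Nrg2 was at 1.94 and 0.407 (log2 ratio -1.06), and in the unperturbed pair Nrg3 was listed at 0 in WT and at 1.33 in cKO, within the range of the sensory receptor genes. List medians were 0.41, -0.53 and -0.35 in the unperturbed, plucked and wound tables, which is the order used for the medians of the lists that follow.

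Of the 7 sheddases and iRhoms, which release the ligands from the membrane or help the protease ADAM17 to mature, Adam12 was at 8.59 FPKM in plucked WT and 0.187 in plucked cKO (log2 ratio -3.01). Rhbdf1, the gene of iRhom1, was at 13.6 and 31.8 in wounds (log2 ratio 1.17). Unperturbed, none passed 2-fold, and the highest, Rhbdf2 and Rhbdf1, were at 35.8 and 28.2 and at 33.4 and 23.2. The list medians were -0.27, -0.16 and -0.09.

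Adaptors connect the receptors to Ras. After hair plucking, Grb2 was at 11.6 FPKM in WT and 29.9 in cKO (log2 ratio 1.30), and Shc1 at 5.86 and 14.6 (log2 ratio 1.18). Both bind phosphorylated ErbB receptors directly. No adaptor passed 2-fold in the other tables, where Gab1 (30.1 and 21.1) and Ptpn11 (26.7 and 22.1) were the highest in the unperturbed pair and Ptpn11 (54.3 and 59.9) and Plcg1 (43.0 and 51.7) in wounds. Medians of the adaptors were -0.29, 0.04 and 0.14.

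Of the Ras-Raf-MEK-ERK kinase cascade, which carries the signal of the receptors to the nucleus, Mapk3 was at 78.3 FPKM in WT and 89.1 in cKO of the unperturbed pair. Medians of the cascade were -0.15, 0.01 and -0.14. Among the 12 PI3K-AKT and STAT genes, none passed 2-fold with 1 FPKM added in any table. The nearest was Pik3r2 after hair plucking (26.7 and 12.9, named after its values were seen). As plain ratios, Pik3r2 (WT/cKO 2.07) and Stat5b (5.37 and 11.5, cKO/WT 2.14, also named after its values were seen) were past 2-fold there. Stat3 was the highest of the 12 genes throughout, at 62.3 and 49.9 in the unperturbed pair, 127 and 144 after hair plucking, and 121 and 160 in wounds. Akt1 was at 48.7 and 42.2 in the unperturbed pair, and Pik3r1 at 110 and 122 after hair plucking and 85.7 and 87.3 in wounds. The medians were -0.20, 0.16 and 0.04.

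Negative regulators dampen the receptors or Ras. After hair plucking, Socs3, a suppressor of cytokine and receptor signalling, was at 2.93 FPKM in WT and 35.4 in cKO (log2 ratio 3.21), and Spry1, an inhibitor of receptor tyrosine kinase signalling, at 5.64 and 15.8 (log2 ratio 1.34). In the unperturbed pair Socs3 had the opposite order, with 62.8 and 35.5 (log2 ratio -0.81). Errfi1, which blocks the kinase of the EGF receptor, was at 52.6 and 32.1 there (log2 ratio -0.69) and at 81.4 and 79.0 in wounds, where Lrig1, a negative regulator of the EGF receptor, was at 40.2 and 45.8. The list had medians of -0.28, 0.04 and 0.09.

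Genes that respond to ERK activity went both ways after hair plucking. Fos was at 3.38 FPKM in WT and 8.97 in cKO (log2 ratio 1.19), and Etv4 at 4.88 and 12.0 (log2 ratio 1.15). Dusp4, a phosphatase of ERK, was at 1.74 and 0.183 (log2 ratio -1.21), and Phlda1 at 2.84 and 0.844 (log2 ratio -1.06). The list as a whole had a median log2 ratio of 0.02 in this table, with 6 genes higher and 6 lower. Unperturbed Fos was at 892 and 514 (log2 ratio -0.79) and Egr1 at 175 and 138, both lower in JunB cKO. In wounds Etv5 was at 2.36 and 6.14 (log2 ratio 1.09), and 8 of the 12 genes were higher in JunB cKO. The medians of the unperturbed and wound tables were -0.20 and 0.29.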

How the data were processed

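The authors trimmed and filtered single-end reads of stranded, rRNA-depleted libraries, mapped them to GRCm38, built loci in Cufflinks and ran Cuffdiff on each pair of genotypes. Each deposited table holds 1 FPKM value per genotype and gene locus, used here as the authors' values. It also holds the authors' log2 fold changes, test statistics, p-values, q-values and significance calls, none of which were used. Columns were assigned to genotypes by the names inside the tables. The condition of a table is given only by the name of the table, and the day by the labels.

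The 3 tables were normalised separately and have different sets of loci, so they were analysed one by one and no fit was made across them. Where a symbol had several loci, the one with the largest summed FPKM was to be used. No differential expression was tested, because there is 1 value per genotype. The planned limma fit, the leave-one-out fits and the fit with the replicate number as a block were not run, since the wound table merges 2 libraries per genotype.

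Reads were estimated as FPKM times the transcript length less 200 bases, divided by the step of 1 read. This step was taken from all loci of 880 to 1000 bp with an FPKM above 0. Of the values under 10 reads at these loci, 71.8% to 98.1% lay within 0.1 of a whole read, so read numbers are approximate. Reads were not marked with molecular identifiers. Counting intervals are Clopper-Pearson intervals at 95%. The 2-fold calls were checked on wild type wound values of which some, at 10 FPKM or more, had been changed by a known factor. The factor was past the limit and no noise was added. The check therefore covers the calculation only and cannot show how reliable a call is. The read estimates and counting intervals were not tested in this way.

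The 10 genes, the pathway lists and the marker lists were chosen with earlier results of these data known. From the pathway lists, genes past 2-fold with at least 1 FPKM were named, at most 5 per list and table, and otherwise the 2 genes with the highest summed FPKM. Some genes that this rule would name are not reported here. Gene positions are from GENCODE M21 and promoter windows from RefSeq (GRCm38.p6). The software was Python 3.11.15, pandas 2.3.3, numpy 2.4.6 and scipy 1.17.1, with plots from matplotlib 3.10.9. The alternatives were 7 planned settings and 2 added after the data had been seen.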

Additional observations from a re-analysis of the deposited data

Results flagged for a closer look

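Egf was flagged because it differed between the genotypes in opposite directions in the injured pairs. Its log2 ratio of JunB cKO over wild type was -1.03 after hair plucking and 0.80 in wounds. The difference between these ratios was not tested, since each rests on 1 value per genotype.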

How the results depend on the processing

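Of the 30 log2 ratios (10 genes in 3 tables), 26 kept their sign under every alternative that gave a value. The exceptions were Egf and Areg in the unperturbed pair, Erbb3 after hair plucking and Hbegf in wounds. Most settings could not reverse a sign. Only centring on expressed loci or on basal keratinocyte markers could, and in the unperturbed pair the subtraction of the sensory receptor median. The count of kept signs is therefore no measure of how reliable the directions are. In the unperturbed pair, the number of genes at least 2-fold higher in JunB cKO went from 0 to 1 (Btc) when ratios were centred on the median of expressed loci or, as added after seeing the data, on basal keratinocyte markers, and to 2 with a 1.5-fold limit. The median of -0.01 went to -0.22 when the median of sensory receptor genes was subtracted. After hair plucking, the number of lower genes went from 1 to 2 with a 1.5-fold limit and to 0 without Egf (added), as both settings imply. The median of 0.34 went to 0.0696 with centring on basal keratinocyte markers and to 0.46 without Egf. Erbb2 and Epgn passed 2-fold in 8 of 8 alternatives and Areg in 7 of 8. Only centring could undo these calls, since the other settings left the ratios unchanged or, with a smaller pseudocount, made them wider. Erbb2 and Epgn passed under both centrings. Areg passed when centred on the median of expressed loci (1.01) but not on basal keratinocyte markers (0.74). In wounds, the number of higher genes went from 0 to 1 (Egf) with a pseudocount of 0.1 or 0.01 or a 1.5-fold limit. Where the setting itself does not give it, the cause was not tested. Summing the loci of a symbol changed no value, as each gene had 1 locus. No paired analysis was possible because the wound table holds 1 value per genotype. With about 20 and 9 reads, the depth of the unperturbed pair limits Egf most.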
